A study of Mus musculus with 10 samples.

Results

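The collagen genes encode the main fibre- and sheet-forming proteins of the extracellular matrix. They were found here as the array features (probe sets) whose only gene symbol was Col, a number, a and a number. There were 46 such probe sets for 44 genes among 19938 genes measured, and where a gene had 2 probe sets, as Col6a5 and Col6a6 did, the one with the higher mean over all arrays was used. The 44 genes comprised 11 fibrillar collagens, 6 chains of the basement membrane collagen IV, and 27 others. These others were 6 chains of collagen VI (beaded filaments), 9 fibril-associated, 3 hexagonal network, 4 transmembrane and 2 multiplexin collagens, and Col7a1, Col26a1 and Col28a1.

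Affymetrix arrays measured their transcripts in ventricular cardiomyocytes and in whole hearts of wild-type mice (WT) and of a mouse line labelled as a knockdown (KD) of VAChT, the transporter that loads acetylcholine into vesicles. All mice were untreated C57BL/6 males aged 3 months. Cardiomyocytes had 3 arrays per genotype and hearts had 2. Each array held RNA pooled from 2 samples. The labels name no allele or construct, and the title of the series writes the line as VAChT KDHOM; in which cells the knockdown acts is not stated in them. Nothing says that the pools came from separate animals, so the p-values reflect variation among arrays and part of it may be technical.

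A collagen molecule is a triple helix of 3 chains. Fibrillar collagens I and III, made mainly by fibroblasts, form the load-bearing fibres between heart muscle bundles, with collagen V starting and limiting fibril growth. Collagen IV forms the sheet of the basement membrane around cardiomyocytes and capillaries, and collagen VI forms a filament network between basement membrane and fibres. New chains are hydroxylated and folded in the endoplasmic reticulum, trimmed outside the cell and crosslinked by lysyl oxidases.

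Values are log2 intensities, on which a difference of 1 is a factor of 2. Array medians over all genes lay between 6.19 and 6.27 in cardiomyocytes and between 7.54 and 7.59 in hearts, so tissues were compared only after each array was centred on its own median. Slc18a3, which encodes VAChT, was not lower in the KD arrays. Its level was 6.06, 6.37 and 6.04 in WT against 6.22, 6.52 and 6.21 in KD cardiomyocytes, and 7.34 and 7.72 in WT against 7.31 and 7.84 in KD hearts. The KD minus WT difference of Slc18a3 was 0.16 (SE 0.16) in cardiomyocytes and 0.05 (SE 0.19) in hearts, with limma adjusted p = 1 in each, so this gene gives no check of the labels and KD below means arrays labelled KD. All 8 cardiomyocyte markers lay higher on every cardiomyocyte array than on every heart array after centring. Heart KD array 1 stood apart. All 11 measured thymocyte and T cell markers had higher means in KD than in WT hearts, with a median of 1.60. The summed level of a list is the log2 of its unlogged intensities added up, so its brightest genes weigh most. For these markers it was 13.77 on KD array 1 against 10.41 on KD array 2 and 10.19 to 10.53 on the WT arrays. The main values of the collagens and of each gene list in hearts are therefore also given without KD array 1, and some without KD array 2.

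The promoters of the collagen chains with the largest differences in KD hearts, where the reference holds them, are shown first. They are the 250 bases before the annotated start in RefSeq (GRCm38.p6), 5′ to 3′, with capitals marking matches on either strand. One motif was CCAAT, bound by the factor NF-Y. The TATA box was searched as TATAAA. The GC box, bound by the factor Sp1, was searched as GGGCGG. The window of Col1a2 is chr6:4505368-4505617 (plus strand), and that of Col3a1 is chr1:45311288-45311537 (plus strand).
Col1a2: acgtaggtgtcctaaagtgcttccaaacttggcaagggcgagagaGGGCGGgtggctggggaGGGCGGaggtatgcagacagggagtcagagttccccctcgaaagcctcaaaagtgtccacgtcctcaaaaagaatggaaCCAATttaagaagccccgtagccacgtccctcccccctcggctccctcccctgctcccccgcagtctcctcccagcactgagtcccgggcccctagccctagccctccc
Col3a1: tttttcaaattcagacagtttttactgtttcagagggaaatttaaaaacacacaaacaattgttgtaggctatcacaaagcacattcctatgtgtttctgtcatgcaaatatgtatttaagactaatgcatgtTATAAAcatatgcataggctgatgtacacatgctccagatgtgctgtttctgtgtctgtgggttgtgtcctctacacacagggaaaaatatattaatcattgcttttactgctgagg
The Col1a2 window held the CCAAT sequence starting 109 bases before the start site and 2 GC boxes, the first starting 205 bases before it. The Col3a1 window held the TATA box sequence starting 117 bases before the annotated start and neither of the other motifs. Among 35 collagen genes in the promoter table, 12 held the CCAAT sequence, 5 the TATA box sequence and 21 the GC box, where 33.8%, 12.4% and 32.7% of all 32851 windows did. A match is a string of letters and not a measured binding site.

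Whole hearts, which contain fibroblasts, vessels and muscle, had more collagen transcript than isolated cardiomyocytes relative to the other genes of the array. After centring, 39 of 44 collagen genes were higher in hearts, with a median difference of 0.38 against -0.12 over all genes. In 30 of 44 collagens (68.2%) every heart array lay above every cardiomyocyte array, as in 25.5% of all genes, and in 2 every heart array lay below, as in 39% of all genes. No test was made, because the labelling manuals cited differ between the tissues and the values were apparently normalized separately, so preparation and tissue cannot be told apart. The median was 0.26 to 0.55 with other centrings or quantile normalization, and collagens higher in hearts numbered 35 to 42 of 44.

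**Figure D1:**
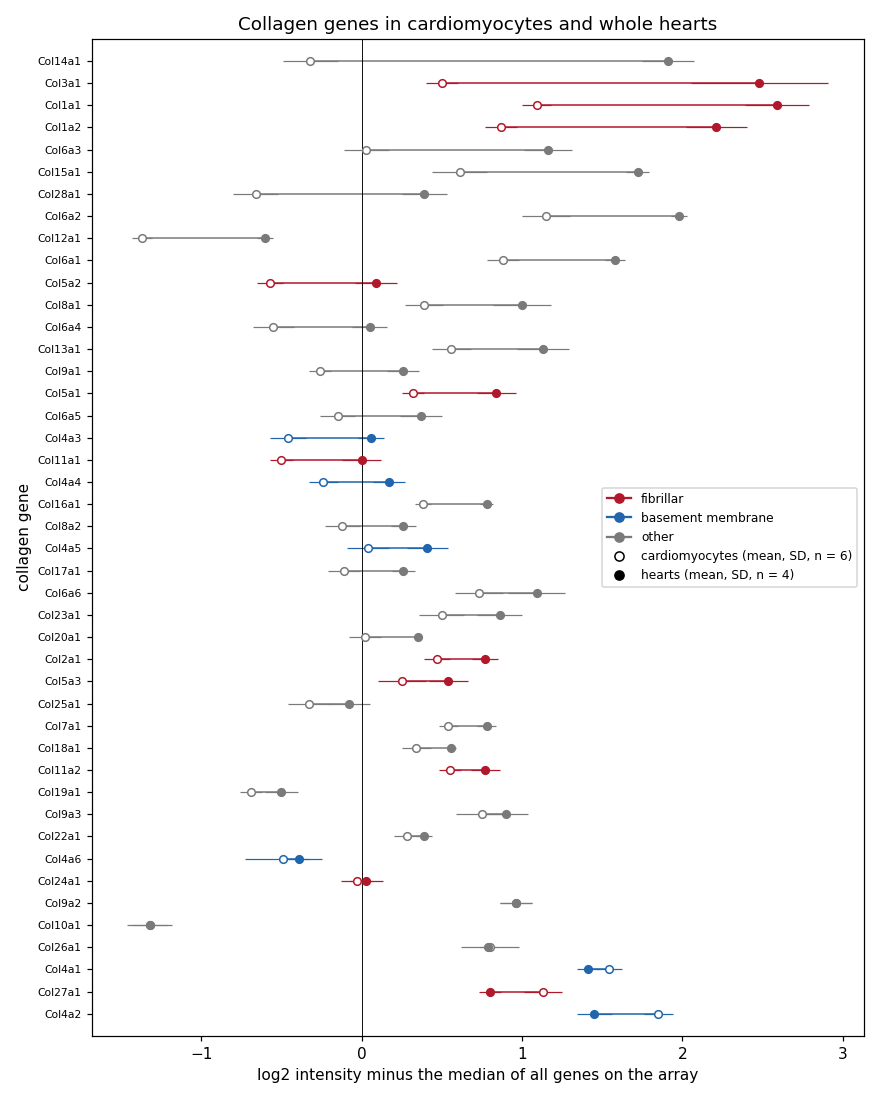
Mean log2 intensity of each of the 44 collagen genes after subtraction of the array median, in cardiomyocytes (open circles, n = 6 arrays) and hearts (filled circles, n = 4 arrays), with lines of 1 SD and WT and KD arrays together. Genes are ordered by the difference between tissues, from Col14a1 (2.23) at the top to Col4a2 (-0.39) at the bottom, and circles of different genes are not comparable in brightness.

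The gap was widest for chains of the interstitial matrix. Col14a1, a fibril-associated collagen that binds the surface of collagen I fibrils, had a centred mean of -0.32 ± 0.17 (SD, n = 6) in cardiomyocytes and 1.91 ± 0.16 (SD, n = 4) in hearts, a difference of 2.23. The differences were 1.99 for Col3a1, 1.5 for Col1a1 and 1.33 for Col1a2, the only chains of collagens III and I. Col6a3, the long chain of collagen VI, differed by 1.14, Col15a1, which links basement membranes to the fibres beside them, by 1.11, and Col28a1 by 1.04. These 7 genes (3 fibrillar, 4 other) were the collagens at least 1 higher in hearts, a size reached by 5.23% of all genes. None of the 7 had overlapping arrays between the tissues.

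The collagen IV chains did not share a direction between tissues. Col4a2, one of the chains of the common basement membrane network, was lower in hearts by 0.39, and its partner Col4a1 by 0.13 with overlapping arrays. The centred means were 1.85 ± 0.09 (SD, n = 6) in cardiomyocytes and 1.45 ± 0.11 (SD, n = 4) in hearts for Col4a2, and 1.54 ± 0.08 and 1.41 ± 0.07 for Col4a1. The chains of the tissue-restricted networks were higher in hearts, Col4a3 by 0.51, Col4a4 by 0.41 and Col4a5 by 0.37, while Col4a6 differed by 0.09 with overlapping arrays. The direction for Col4a1 and Col4a2 was not stable, since quantile normalization of all arrays gave 0.40 and 0.18 and centring on array means 0.04 and -0.22. The fibrillar Col27a1, a cartilage collagen, was lower in hearts by 0.33 after centring and higher by 0.03 after quantile normalization. Col26a1 (-0.01) and the hypertrophic cartilage collagen Col10a1 (0.00) did not separate the tissues.

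By class, the median gap was 0.49 over the 11 fibrillar genes, with 8 separated upward in hearts, 0.23 over the 6 basement membrane genes, with 3 separated upward, and 0.38 over the other 27, with 19 separated upward. With the probe sets used, all 6 collagen VI chains were higher in hearts, from 0.37 for Col6a6 to 1.14 for Col6a3. The other probe set of Col6a5 measured 4.92 to 5.01 in cardiomyocytes and 5.61 to 5.75 in hearts. It lay further below the array medians in hearts, so the direction for Col6a5 depended on the probe set. All 9 fibril-associated genes were higher too, from 0.01 for Col9a2 and 0.10 for Col22a1 to 2.23 for Col14a1. The chains of the cartilage collagen IX differed among themselves, with 0.52 and no overlap for Col9a1 and 0.15 with overlap for Col9a3. Fibroblast markers moved the same way, with a median gap of 1.47 and 10 of 12 separated upward. Summed fibroblast marker level was 11.21 to 12.15 in cardiomyocytes and 14.74 to 14.90 in hearts, and all 12 markers lay above the 95th percentile of olfactory receptor genes in each tissue. Macrophage markers had a median gap of 2.20, mesothelial markers 1.68 and cardiomyocyte markers -0.96. Vessel markers did not share a direction. Endothelial markers had a median gap of -0.23, with 3 of 10 separated upward and 4 downward. Smooth muscle and pericyte markers had 0.26, with 3 of 9 separated upward and 3 downward. The part of these cells in the collagen gap was not tested. In tissue samples, fewer cells of a type and less RNA per cell cannot be told apart.

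Olfactory receptor genes, few of which are expected to be transcribed in the heart, stood in for detection calls, which were not used here. Their 95th percentile was 5.64 in cardiomyocytes and 7.13 in hearts. Means of 40 of 44 collagens in cardiomyocytes and 41 of 44 in hearts were above it, including all fibrillar and all basement membrane genes, as were 61.4% of all genes in each tissue. Probe sets differ in brightness for the same amount of RNA, so this is a rough yardstick.

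No collagen gene differed between KD and WT hearts past the threshold, a limma p adjusted over all genes under 0.05. The count was 0 of 44, and it was 0% of all 19938 genes. Without KD array 2, which leaves the array with the thymocyte signal as the only KD heart, 303 of all genes and 0 collagens passed, and without KD array 1 the counts were 1 and 0. At an unadjusted limma p under 0.05 there were 2 collagens, Col3a1 and Col1a1, both lower in KD, where 2.49% of all genes were lower and 4.93% passed in either direction. Over the 44 genes 19 had a lower and 25 a higher mean in KD hearts (43.2% lower, against 47.4% of all genes), with a median of 0.02 against 0.01 over all genes. Centring on array medians turned this split to 26 lower and 18 higher. The 95% confidence interval reached 0.30 to either side for the median collagen gene, so smaller differences in such a gene were not detectable with 2 arrays a group. This interval is not adjusted over genes. Larger differences could therefore also miss the threshold, as Col3a1 did at -0.56.

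The chains of collagens I and III had the lowest KD minus WT differences in hearts among the fibrillar genes. Col3a1, the only chain of collagen III, measured 10.46 and 10.17 on the WT heart arrays and 10.03 and 9.49 on the KD arrays. Every KD array lay below every WT array, and the KD arrays lay further from each other than KD array 1 did from the WT arrays' lower value. The difference was -0.56 (SE 0.17, 95% confidence interval -0.93 to -0.19, unadjusted p = 0.0065, limma adjusted p = 0.95). It was -0.82 without KD array 1, -0.29 without KD array 2 and -0.48 after a trend with intensity was removed.

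Col1a1, the more abundant chain of the collagen I molecule, measured 10.29 and 10.31 in WT against 9.98 and 10.01 in KD hearts. The groups were separate and the arrays within each group close together. The difference was -0.31 (SE 0.13, interval -0.59 to -0.03, unadjusted p = 0.033, limma adjusted p = 0.95), between -0.33 and -0.29 when any heart array was left out, and -0.22 with the intensity trend removed. Col1a2, the partner chain, measured 9.96 and 9.83 in WT against 9.70 and 9.55 in KD hearts, again without overlap. Its difference was -0.27 (SE 0.14, interval -0.56 to 0.03, unadjusted p = 0.073, limma adjusted p = 1), and between -0.34 and -0.19 with any heart array left out.

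**Figure D2:**
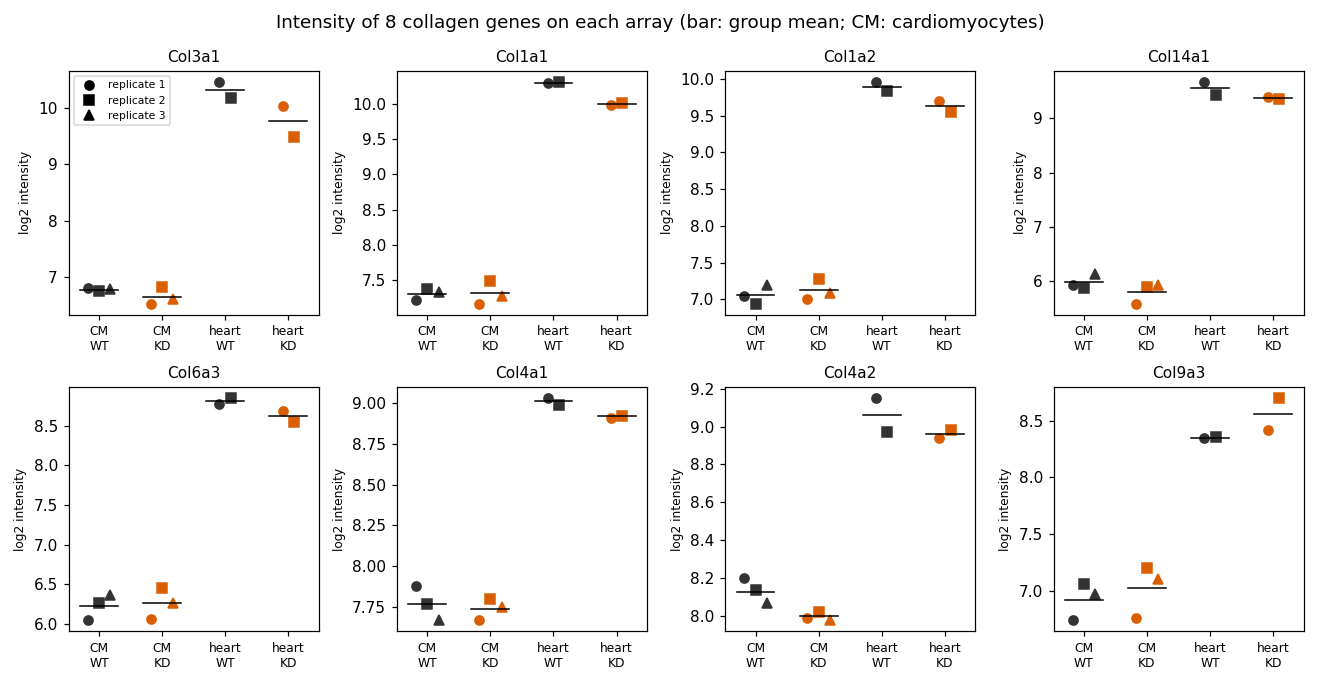
Log2 intensity of 8 collagen genes on each of the 10 arrays, with WT arrays in dark grey, KD arrays in orange, symbols for replicate numbers and a bar at each group mean; the vertical axis differs between panels and does not start at 0. In hearts both KD arrays lie below both WT arrays for Col3a1, Col1a1, Col1a2, Col14a1, Col6a3 and Col4a1, and above them for Col9a3.

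The remaining fibrillar genes did not share this separation. Col5a1, the chain common to collagen V molecules, measured 8.44 and 8.37 in WT against 8.23 and 8.54 in KD hearts, and Col5a3 measured 8.17 and 8.07 in WT against 7.93 and 8.20 in KD hearts. In each the KD arrays lay on either side of the WT arrays. Col5a2, which lies next to Col3a1 on chromosome 1, measured 7.79 and 7.61 in WT against 7.49 and 7.67 in KD hearts, a difference of -0.12 (SE 0.12) with overlapping arrays. The cartilage chains Col2a1, Col11a1 and Col11a2 differed by 0.04, 0.07 and 0.11. Col24a1, a fibrillar collagen of developing bone and cornea, had KD arrays of 7.58 and 7.76, both above the WT arrays of 7.52 and 7.48, and a difference of 0.17 (SE 0.13, limma adjusted p = 1), which was 0.26 without KD array 1 and 0.08 without KD array 2. The 8 fibrillar genes without collagens I and III had a median of 0.05, and all 11 had -0.02.

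Collagen IV chains differed by -0.18 to 0.11 in hearts, with 5 of 6 lower in KD and a median of -0.08. Col4a1 measured 9.03 and 8.99 in WT against 8.91 and 8.92 in KD hearts, a difference of -0.09 (SE 0.12; -0.08 without KD array 1) between separate groups. Col4a2, its head-to-head neighbour, measured 9.15 and 8.97 in WT against 8.94 and 8.98 in KD, which overlapped, and its difference of -0.10 was -0.01 without WT array 1 and -0.19 without WT array 2. Col4a5, mutated in X-linked Alport syndrome, measured 8.08 and 8.02 in WT against 7.84 and 7.90 in KD hearts, separate groups with a difference of -0.18 (SE 0.14, interval -0.49 to 0.12, limma adjusted p = 1; -0.15 without KD array 1). Its neighbour Col4a6 measured 7.19 and 7.15 in WT against 7.08 and 7.23 in KD, and differed by -0.01. The pair Col4a3 and Col4a4 went apart, Col4a3 with 7.58 and 7.52 in WT against 7.57 and 7.76 in KD (0.11), and Col4a4 with 7.85 and 7.66 in WT against 7.63 and 7.76 in KD (-0.06). Neither pair of groups was separate.

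Among the other collagens 8 of 27 were lower and 19 higher in KD hearts, with a median of 0.03. Col6a3 measured 8.78 and 8.85 in WT against 8.69 and 8.55 in KD hearts (difference -0.20, SE 0.15), whereas its partner chains Col6a1 (-0.05) and Col6a2 (0.05) had overlapping arrays. The Col6a3 difference was -0.27 without KD array 1 and -0.13 without KD array 2. Col14a1 measured 9.67 and 9.43 in WT against 9.40 and 9.35 in KD (difference -0.18, SE 0.15), and Col15a1 differed by -0.08 (SE 0.15); in both the KD arrays were the lower ones. The Col14a1 difference was -0.20 without KD array 1, but -0.06 without WT array 1 and -0.29 without WT array 2, and that of Col15a1 was -0.03 without KD array 1 and -0.13 without KD array 2. Col9a1 measured 7.73 on each WT array and 7.80 and 8.0 in KD (0.17, SE 0.12). Col9a3 measured 8.35 and 8.36 in WT against 8.42 and 8.70 in KD (0.21, SE 0.17). The remaining collagen IX chain, Col9a2, measured 8.57 and 8.51 in WT against 8.38 and 8.61 in KD (-0.04, SE 0.14), with overlap. Without KD array 1 the differences were 0.27 for Col9a1 and 0.34 for Col9a3, and without KD array 2 they were 0.07 in each. Col9a1, Col9a3 and Col24a1 were the 3 collagens with both KD arrays above both WT arrays. Limma adjusted p was 1 for each of these genes.

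In total both KD heart arrays lay below both WT arrays in 8 of 44 collagens (18.2%), as in 15.4% of all genes, and above them in 3 (6.82%), as in 14.2% of all genes. The 8 were Col1a1, Col1a2, Col3a1, Col4a1, Col4a5, Col6a3, Col14a1 and Col15a1, and the share is near the background. Of the 7 collagens at least 1 higher in hearts than in cardiomyocytes, 6 were among these 8, the exception being Col28a1. Both comparisons use the same heart arrays. The matching share among all genes at least 1 higher in hearts was not counted, so this overlap cannot be read as a link.

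**Figure D3:**
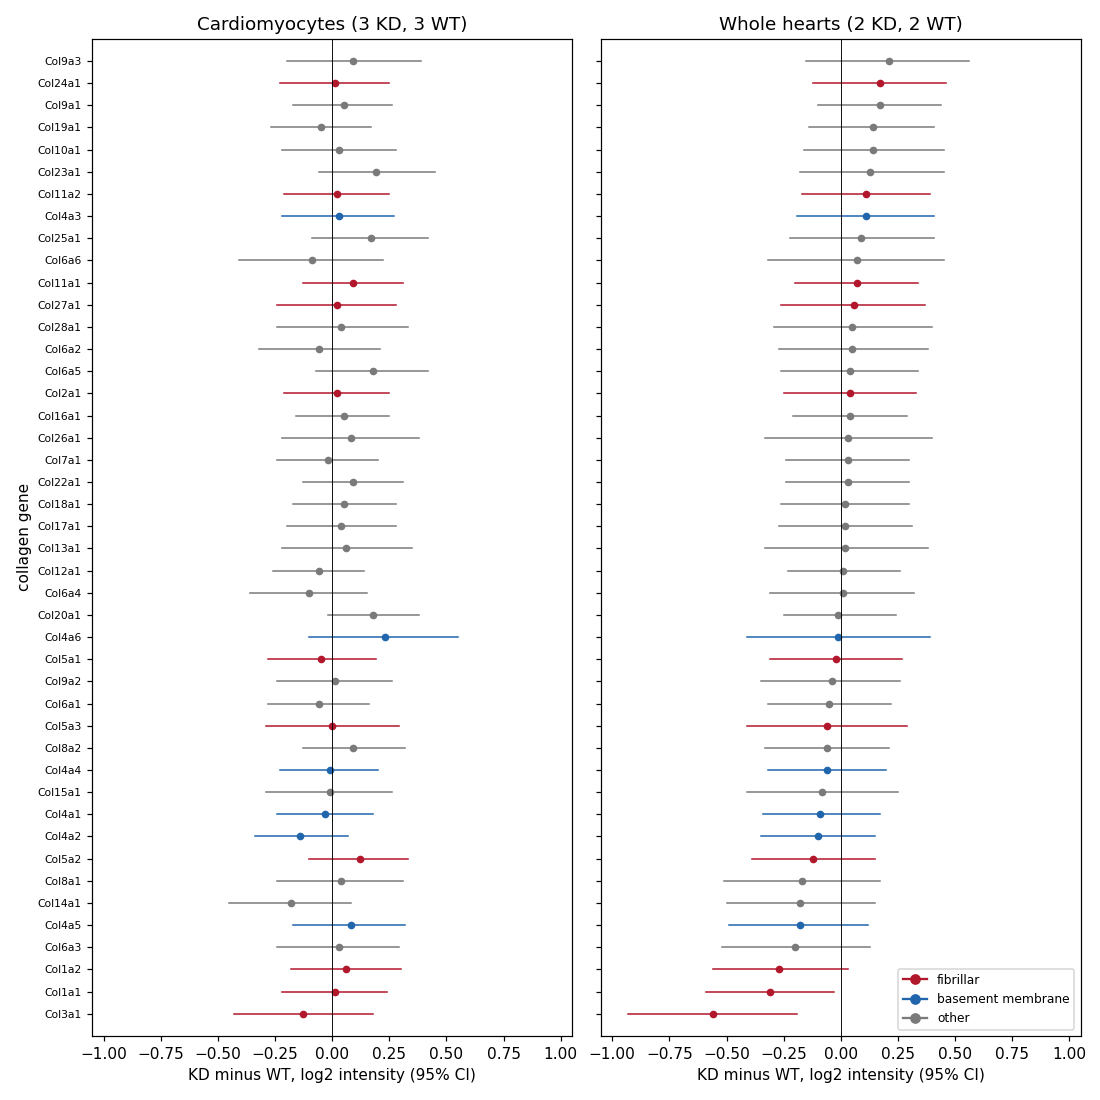
KD minus WT difference in log2 intensity of each of the 44 collagen genes, with its 95% confidence interval from the limma fit, in cardiomyocytes (left, 3 arrays a group) and hearts (right, 2 arrays a group), coloured by class and ordered by the value in hearts. Only the heart intervals of Col3a1 (-0.93 to -0.19) and Col1a1 (-0.59 to -0.03) leave out 0, and neither passes after adjustment over all genes.

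In cardiomyocytes no collagen gene passed the adjusted threshold (0 of 44, limma; 0% of all genes), and 0 of 44 had an unadjusted p under 0.05, as 2.1% of all genes had. Differences ran from -0.18 to 0.23, with 15 collagens lower (34.1%, against 50% of all genes) and 29 higher in KD and a median of 0.03 against -0.0001 over all genes. The medians were 0.02 for fibrillar, 0.01 for basement membrane and 0.04 for other collagens. The split depended on single arrays, with 29 lower and 15 higher without KD array 2 and 25 lower and 19 higher without WT array 1. The interval reached 0.24 to either side for the median collagen.

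Collagen I chains had nearly equal means in WT and KD cardiomyocytes. Col1a1 measured 7.22, 7.38 and 7.33 in WT against 7.17, 7.49 and 7.28 in KD, a difference of 0.01 (SE 0.11, interval -0.22 to 0.24). Col1a2 measured 7.05, 6.94 and 7.20 in WT against 7.01, 7.27 and 7.08 in KD, a difference of 0.06 (SE 0.11, interval -0.18 to 0.30). Col3a1 measured 6.80, 6.75 and 6.79 in WT against 6.53, 6.82 and 6.61 in KD, a difference of -0.13 (SE 0.14, interval -0.43 to 0.18). KD array 2 was the highest of the 6 arrays in all 3 genes and the other KD arrays of Col3a1 lay below its WT arrays. The collagen V chains Col5a1, Col5a2 and Col5a3 differed by -0.05, 0.12 and 0.00 with overlapping arrays. Col5a2 measured 5.57, 5.64 and 5.56 in WT against 5.60, 5.75 and 5.77 in KD.

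Col4a2 was the 1 collagen whose KD arrays all lay below the WT arrays in cardiomyocytes, as in 3.21% of all genes. It measured 8.20, 8.14 and 8.07 in WT against 7.99, 8.02 and 7.98 in KD (difference -0.14, SE 0.10, interval -0.34 to 0.07, unadjusted p = 0.17, limma adjusted p = 1). Col4a1 measured 7.88, 7.77 and 7.67 in WT against 7.67, 7.80 and 7.75 in KD, with overlap. Col4a6 had the highest difference in cardiomyocytes at 0.23 (SE 0.15), but its arrays spread widely, with 5.33, 5.85 and 5.67 in WT against 5.57, 6.11 and 5.85 in KD. Col4a3, Col4a4 and Col4a5 differed by 0.03, -0.01 and 0.08.

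Col14a1 had the lowest difference in cardiomyocytes, with 5.94, 5.88 and 6.14 in WT against 5.59, 5.9 and 5.93 in KD (-0.18, SE 0.12, interval -0.45 to 0.08). Its arrays overlapped. All KD arrays lay above the WT arrays in 2 collagens, as in 2.99% of all genes. They were the fibril-associated Col20a1, with 6.18, 6.12 and 6.15 in WT against 6.26, 6.43 and 6.29 in KD (0.18, SE 0.09), and the transmembrane Col25a1, with 5.80, 5.81 and 5.81 in WT against 5.88, 6.19 and 5.83 in KD (0.17, SE 0.12). The transmembrane Col23a1 measured 6.48, 6.70 and 6.70 in WT against 6.88, 6.91 and 6.67 in KD (0.19, SE 0.12), with overlap. All 4 transmembrane collagens had higher means in KD cardiomyocytes, by 0.04 to 0.19, as did 29 of 44 collagens and 9962 of all 19938 genes. Col13a1 measured 6.60, 6.84 and 6.79 in WT against 6.65, 7.04 and 6.74 in KD, so its higher mean rested on KD array 2. That array was also the highest for Col23a1 and Col25a1.

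The difference between the KD effects of hearts and cardiomyocytes passed the threshold in no collagen gene (0 of 44, limma; 0% of all genes), and 0 of 44 had an unadjusted p under 0.05, as 3.49% of all genes had. The lowest values were those of Col3a1 at -0.43 (SE 0.22, interval -0.91 to 0.05, unadjusted p = 0.074), Col1a1 at -0.32 (SE 0.17, unadjusted p = 0.08) and Col1a2 at -0.32 (SE 0.18, unadjusted p = 0.088), each with limma adjusted p = 0.999. The lower level of these chains in KD hearts is thus not shown to be particular to hearts.

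Single arrays moved many collagens together. In hearts, KD array 1 was the lowest of the 4 arrays in 28 of 44 collagens (63.6%; 34.1% of all genes) and KD array 2 the highest in 28 (63.6%; 40.4% of all genes). In 17 of 44 (38.6%) KD array 1 lay below and KD array 2 above both WT arrays, as in 18% of all genes, and in 0 of 44 the reverse held, as in 7.85% of all genes. The 17 included Col5a1, Col5a3, Col11a1, Col13a1, Col18a1 and Col28a1. The mean deviation of the collagens from their WT mean was -0.09 on KD array 1 and 0.06 on KD array 2. Without KD array 1 the heart split was 12 lower and 32 higher, and without KD array 2 it was 38 lower and 6 higher, so the direction over all collagens rested on which KD heart array was used. Col1a1, Col1a2 and Col3a1 were lower with either one.

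In cardiomyocytes KD array 2 was the highest of the 6 arrays in 23 of 44 collagens (52.3%; 19.1% of all genes) and WT array 1 the lowest in 22 (50%; 19.4% of all genes). Mean deviations were 0.15 and -0.07 on these arrays. Median intensity over all genes was 6.27 on KD array 2, the highest of the cardiomyocyte arrays, and 6.2 on WT array 1. The part of overall array intensity in this order was not tested.

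**Figure D4:**
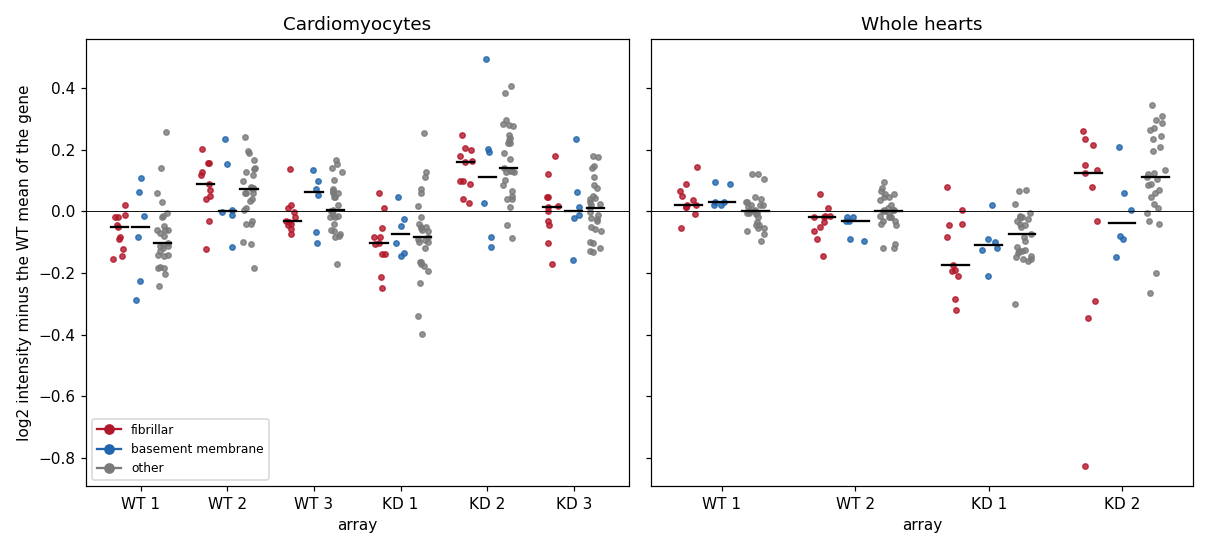
Log2 intensity of each collagen gene minus its WT mean in the same tissue, on each cardiomyocyte array (left) and heart array (right), with 1 point per gene, colours for the classes and a black bar at the class median. On KD array 1 of the hearts 38 of 44 genes lie below 0, and on KD array 2 there are 12, with Col3a1 the lowest point, followed by Col1a2, Col1a1, Col6a3 and Col14a1.

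Genes that make, trim, bind or degrade collagen were read from 8 lists with 83 of 87 genes measured, and 0 of these 83 passed the adjusted limma threshold in either tissue. In KD hearts 47.4% of all genes had lower means, the share to set beside the counts of each list with all arrays. Of the hydroxylation and glycosylation genes, 12 of 15 had lower means (median -0.07), and 6 of 15 without KD array 1 (0.02). Plod2, the lysyl hydroxylase that acts on the ends of collagen chains, measured 9.06 and 8.86 in WT against 8.57 and 8.34 in KD hearts, separate groups with a difference of -0.51 (SE 0.13, unadjusted p = 0.002, limma adjusted p = 0.94), and -0.63 without KD array 1. P4ha1, a prolyl hydroxylase subunit, differed by -0.32 (SE 0.18) with overlapping arrays. Of 9 folding and export genes 8 had lower means (median -0.21), and 6 without KD array 1 (-0.17). Serpinh1, the collagen chaperone HSP47, measured 8.74 and 8.81 in WT against 8.53 and 8.46 in KD hearts, separate groups with a difference of -0.28 (SE 0.13, unadjusted p = 0.058, limma adjusted p = 1), and -0.32 without KD array 1.

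Procollagen processing genes had 3 of 9 lower means and a median of 0.04 (2 of 9 and 0.10 without KD array 1), with Bmp1, the protease that removes the C-propeptide, at -0.02 and its enhancer Pcolce at 0.09. All 5 crosslinking genes had lower means (median -0.06), and 4 without KD array 1 (-0.09). Lox, a lysyl oxidase whose means lay below the olfactory 95th percentile, was separate at -0.13 (SE 0.11), and Tgm2, a transglutaminase, at -0.28 (SE 0.17). Of 9 receptors 7 had lower means (median -0.05), but 2 without KD array 1 (0.04), with the integrin chains Itga1 at -0.33 (SE 0.21) and Itgb1 at -0.36 (SE 0.17) and the collagen receptor kinase Ddr2 at -0.03 (SE 0.20).

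The degradation list also holds the protease inhibitors Timp1, Timp2, Timp3 and Timp4, so its counts mix genes of opposite action. It had 9 of 13 lower means and a median of -0.02 (7 of 13 and -0.01 without KD array 1). Ctsk, the protease cathepsin K, measured 7.44 and 7.59 in WT against 7.02 and 7.20 in KD hearts (-0.40, SE 0.14, unadjusted p = 0.013, limma adjusted p = 0.95; -0.31 without KD array 1). Mmp9, a gelatinase, went the other way with 6.52 and 6.2 in WT against 6.76 and 6.70 in KD (0.36, SE 0.16, unadjusted p = 0.037, limma adjusted p = 0.962). Mmp9 was 0.33 without KD array 1 and 0.21 without WT array 2, and its means lay below the olfactory 95th percentile in hearts and in cardiomyocytes. In hearts the KD mean of Ctsk (7.11) also lay below this percentile, and its WT mean (7.52) above. The gelatinase Mmp2 (-0.37, SE 0.21) and its activator Mmp14 (-0.18, SE 0.13) had both KD arrays below the WT arrays, and the inhibitor Timp1 differed by -0.01. All 10 basement membrane partners had lower means, with a median of -0.16. Among them were Lama4, a laminin chain (-0.24, SE 0.14), and the proteoglycan Agrn (-0.28, SE 0.16). Of the 10, 9 were separate downward, where 15.4% of all genes were, and 9 had lower means without KD array 1 (-0.15). Many of these partners are bright, and brighter genes ran slightly lower in the heart comparison. The part of intensity in the values of the 8 lists was not tested. Of 13 fibrogenic signal genes 8 had lower means (median -0.11), and 10 without KD array 1 (-0.14). Tgfb1, which encodes a TGF-beta ligand, had a higher mean. It measured 9.01 and 9.49 in WT against 9.43 and 9.64 in KD hearts (0.29, SE 0.17), with overlap. Tgfbr1 (0.09), Smad2 (0.10), Smad3 (0.07) and Smad4 (0.04) had higher means too.

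Ccn2, a matricellular gene induced by TGF-beta, had opposite signs in the tissues. In hearts it measured 11.04 and 10.92 in WT against 10.58 and 10.67 in KD (-0.35, SE 0.14, unadjusted p = 0.031, limma adjusted p = 0.95; -0.31 without KD array 1). In cardiomyocytes it measured 10.62, 10.69 and 10.73 in WT against 11.15, 11.44 and 10.95 in KD (0.50, SE 0.12, unadjusted p = 0.00099, limma adjusted p = 1). The groups were separate in both tissues and neither difference passed the threshold. The heart effect minus the cardiomyocyte effect was -0.85 (SE 0.19, unadjusted p = 0.00055, limma adjusted p = 0.999), which did not pass either. Postn, a matrix protein of activated fibroblasts, differed by -0.35 (SE 0.18; -0.42 without KD array 1) in hearts and -0.09 (SE 0.15) in cardiomyocytes.

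In cardiomyocytes the medians of the 8 lists lay between -0.07 (receptors) and 0.11 (crosslinking). Loxl4, a lysyl oxidase, measured 5.38, 5.30 and 5.53 in WT against 5.53, 5.75 and 5.76 in KD (0.27, SE 0.11, unadjusted p = 0.024, limma adjusted p = 1), and Lox was separate at 0.12 (SE 0.09). Ctsk, lower in KD hearts, differed by 0.22 (SE 0.11) with overlap. Its heart effect minus its cardiomyocyte effect was -0.62 (SE 0.18, unadjusted p = 0.0045, limma adjusted p = 0.999). The means of Lox, Mmp9 and Ctsk and the WT mean of Loxl4 lay below the olfactory 95th percentile. Mmp9 measured 4.49, 5.0 and 4.75 in WT against 5.17, 5.18 and 5.15 in KD (0.42, SE 0.13, unadjusted p = 0.0059, limma adjusted p = 1). Serpinh1, P4ha1 and Plod2 differed by -0.03, 0.00 and -0.08.

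Markers of several cell types moved with the heart comparison. In that comparison brighter genes ran slightly lower, with a median of 0.008 over all genes and -0.023 after a filter on dim genes. Many of the markers are bright, and the part of intensity in their values was not tested. Of 12 fibroblast markers 10 had lower means in KD hearts (median -0.16), where 47.4% of all genes did, and 7 were separate downward, where 15.4% of all genes were. Without KD array 1 there were 10 lower (-0.11). Their summed level was 14.84 to 14.90 in WT against 14.74 to 14.76 in KD hearts. Lum (-0.34), Mfap5 (-0.36) and Dcn (-0.15), small proteoglycan and microfibril genes of fibroblasts, were among the 10. Thy1, at 1.26, measured 10.55 on KD array 1 and 8.45 on KD array 2, and is also a thymocyte gene. All 10 endothelial markers had lower means too (median -0.21), with a summed level of 13.75 to 13.90 in WT and 13.51 to 13.63 in KD hearts. So had 8 of 9 smooth muscle and pericyte markers (median -0.19; summed level 13.60 to 13.80 in WT, 13.41 to 13.46 in KD) and all 8 cardiomyocyte markers (median -0.10; summed level 16.65 to 16.71 in WT, 16.55 to 16.61 in KD). Without KD array 1 the medians were -0.27 for endothelial (9 of 10 lower), -0.16 for smooth muscle and pericyte (7 of 9) and -0.05 for cardiomyocyte markers (5 of 8), and 6 of 11 thymocyte and T cell markers had lower means. Mesothelial (6 of 6 lower, -0.11) and adipocyte markers (5 of 5, -0.20) did likewise, macrophage markers had 3 of 9 lower (0.02), Schwann cell markers 1 of 4 (0.06), and airway markers 3 of 8 (0.03). In KD cardiomyocytes 9 of 9 macrophage markers had lower means (median -0.26), where 50% of all genes did. Only 5 of these 9 lay above the olfactory 95th percentile in cardiomyocytes. Their summed level was 9.14, 8.78 and 9.69 on the WT arrays, with WT array 3 the highest, against 8.8, 8.95 and 8.75 on the KD arrays. Fibroblast markers in cardiomyocytes split 5 lower and 7 higher (0.01). The part of cell makeup in the values of collagens I and III was not tested.

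Cartilage markers bear on the cartilage chains Col2a1, Col9a1, Col9a2, Col9a3, Col11a1 and Col11a2. These markers had 3 of 9 lower means in KD hearts and a median of 0.09, with 1 of 9 and 0.17 without KD array 1. Their summed level was 10.43 on KD array 1, 10.76 on KD array 2 and 10.62 and 10.67 on the WT arrays, the same order of the KD arrays as in most collagens. Of the 9 markers 5 in hearts and 4 in cardiomyocytes were above the olfactory 95th percentile.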

How the data were processed

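Per the labels' protocols, a Bio-Rad kit gave the RNA, 2 samples were pooled per array and biotin was put on cDNA, and they cite an Ambion and an Affymetrix manual for cardiomyocytes and an Affymetrix manual alone for hearts. For 35556 probe sets the authors deposited log2 intensities, made with RMA and Partek per the submitters' processing notes, with versions and settings not given in the sources used here, and scanner values were not used. RMA evens out the arrays it treats together and compresses differences of dim probes.

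The platform annotation gave 21789 probe sets 1 gene symbol, 1621 several, and left 12146 unnamed. Per gene the probe set with the highest mean was kept, without a filter on dim genes. All 10 arrays were fitted with limma 3.58.1 in R 4.3.3 (4 group means, eBayes with an intensity trend, 6 residual and 6.81 prior degrees of freedom), with two-sided tests and Benjamini-Hochberg adjustment over 19938 genes at 0.05. Contrasts were KD minus WT in each tissue and the difference of these effects. The number of arrays limits the precision. No permutation test was run, since with 3 arrays per group the smallest two-sided exact p is 0.1. The code was tested on simulated data.

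The members, classes, gene lists (8 of pathways, 11 of markers with 91 of 95 genes measured) and the rule for genes to name were set with earlier results of these data known. The rule took collagens I, III, IV and V, unadjusted p under 0.05, the extremes of each comparison, and per list the smallest p plus genes set by name; the text gives a subset. Other named genes and the olfactory yardstick were chosen after values were seen. So were values without collagens I and III, list values without single KD heart arrays and the counts by array. Alternatives were other normalizations, a dim filter, mean probe sets, single-tissue fits, array weights, eBayes settings, a replicate block, removal of a loess trend (span 0.3), an adjusted p of 0.1 and leaving out each array.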

Additional observations from a re-analysis of the deposited data

How the results depend on the processing

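Of 558 alternative values 6 had the opposite sign to the value reported, and none changed its side of the threshold. Those 6 were 2 of Slc18a3 in hearts and 4 of the collagen medians, which were -0.011 in cardiomyocytes without WT array 1, -0.049 there without KD array 2, -0.012 in hearts after centring on array medians and -0.092 there without KD array 2. Among 455 values of single genes 453 kept their direction. Part of this was fixed in advance, since eBayes settings, single-tissue fits and the replicate block leave a difference of group means unchanged. Mean probe sets do so for genes with a single probe set. The 558 values also include counts of collagens past the threshold, which have no sign to change. In hearts 303 of all genes passed without KD array 2, and 237 for the difference of effects. The count of collagens past the threshold was 0 in each contrast under every alternative run, and the smallest adjusted limma p of any collagen was 0.169, for Col3a1 without heart KD array 1. The median KD minus WT difference over collagens in hearts was 0.021, and ranged from -0.092 to 0.101 when single heart arrays were left out; in cardiomyocytes it was 0.026, with a range of -0.049 to 0.088. The median level gap between hearts and cardiomyocytes was 0.378. It was 1.715 without centring, by construction since the heart arrays have higher medians, 0.506 after quantile normalization, 0.55 after centring on array means and, added after seeing the data, 0.257 after centring on olfactory receptor genes. The cause of the last 3 shifts was not tested. Slc18a3 in hearts ranged from -0.22 to 0.31 with single arrays left out, among them -0.14 without WT array 1 and -0.22 without KD array 2. With the replicate number as a block the medians were 0.021 in hearts and 0.026 in cardiomyocytes and collagen calls stayed at 0, with adjusted p = 0.584 for Col3a1 in limma. Deviations of same-numbered arrays from their group means correlated at 0.15, 0.13 and -0.05 in cardiomyocytes and at 0.23 in hearts. With 2 heart arrays a group these deviations mirror each other, so both replicate numbers give the same value. Differently numbered arrays were not set beside them, so the values cannot settle whether the numbers pair the arrays. The main fit did not use them as pairs. Where leaving out an array left 1 in its group, that array was assumed to vary like the others. A filter on dim genes kept 38 collagens.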
